A study of Mus musculus with 10 samples.

Results

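The genes that encode subunits of the proteasome were described in CD4+CD25- T cells sorted from mouse breast tumours. They were taken by symbol, as every gene named Psma, Psmb, Psmc, Psmd or Psme followed by a number, with no use of measured values. There were 42 such genes among the 17363 named genes of the table, and 41 of them were tested. Psma8, the alpha subunit of the testis proteasome, had too few counts. The proteasome is the protease that degrades proteins tagged with ubiquitin. Its 20S core is a barrel with outer rings of alpha subunits and inner rings of beta subunits, and the 19S cap unfolds tagged proteins with a ring of ATPases. In lymphocytes and in cells exposed to interferon gamma, Psmb8, Psmb9 and Psmb10 take the places of the constitutive catalytic subunits Psmb5, Psmb6 and Psmb7 to form the immunoproteasome, which favours peptides that MHC class I molecules can present.

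RNA sequencing libraries came from T cells of C57BL/6 mice at 23 weeks of age. All 4 genotypes carried floxed Tgfbr2 alleles (Tgfbr2 fl/fl) and the PyMT transgene, which drives mammary tumours. IL4-/-KO cells lacked Il4 and carried ThPOK-Cre, which deletes Tgfbr2, a receptor gene for TGF-beta, in the CD4 lineage. KO cells carried ThPOK-Cre with Il4 intact, IL4-/- cells lacked Il4 without Cre, and WT cells had neither change. Each genotype had 2 replicates, and each KO replicate was sequenced from a first and a repeat library of the same RNA, averaged and counted once. Nothing in the labels says that replicates of a genotype were separate mice, so p-values measure only the spread between these samples.

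Tgfbr2, counted over the whole gene, was at 7762 and 8205 normalized counts (reads divided by a size factor for each library) in IL4-/-KO, 5803 to 9442 in the 4 KO libraries, 13816 and 12544 in IL4-/- and 7876 and 7894 in WT. IL4-/-KO lay below IL4-/- (log2 fold change -0.72 ± 0.27, limma adjusted p = 1), but KO overlapped WT (-0.14 ± 0.27, limma adjusted p = 0.876). A count of the whole gene need not fall when part of it is deleted, so it does not check the KO label. Il4 was at 98.7 and 39.7 in IL4-/-KO, 236 to 523 in KO, 97.2 and 75.4 in IL4-/- and 107 and 276 in WT, so every Il4-deleted library lay below every other library without being at 0. Groups are therefore called by their labels, and Tgfbr2 deletion stands for carrying ThPOK-Cre. Depth was 17121030 to 33802781 reads per library, and WT and the first KO libraries (17121030 to 18479090 reads) lay below all others (28003231 or more). The KO repeats had a read in 12891 and 12459 genes, fewer than any other library (13892 or more). T cell markers were abundant, with none of the 11 genes found of 12 at 0 in any library. Their summed normalized count was 180192 to 185364 in IL4-/-KO, 215631 to 249300 in KO, 105505 to 183477 in IL4-/- and 119669 to 181979 in WT libraries. RNA of mammary epithelium, from 12 markers of which none was at 0, summed to 15523 to 66099 in IL4-/-KO, 102957 to 167372 in KO, 46685 to 137980 in IL4-/- and 24598 to 210438 in WT libraries. Macrophage and monocyte markers, 12 of 12 found, summed to 120974 in IL4-/- replicate 2 and to no more than 25517 elsewhere, with Mrc1 at 0 in 7 libraries and Adgre1 and Fcgr1 also at 0 in the repeat of KO replicate 1. The neutrophil list reached 6788 in KO and at most 995 elsewhere, and the B cell, CD8 T cell and fibroblast and vessel lists stayed at or below 269, 1126 and 3207. In such bulk samples, fewer T cells and less RNA per T cell cannot be told apart.

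Proteasome genes made up 0.575% to 1.08% of the reads of a library. Psmb8 had the highest level per length, with a median over the 8 replicates of 12253 normalized counts per kb of transcript. Next on this scale stood the subunits of the interferon-inducible PA28 activator, Psme1 at 8500 and Psme2 at 8141, then Psmb6 at 7091 and Psma7, an alpha subunit, at 5241. Psmb8 ranked first in 8 of 8 replicates. The order of the others changed between replicates, with ranks of 2 to 4 for Psme1 and Psme2, 3 to 7 for Psmb6, 4 to 7 for Psma7 and 4 to 14 for Psmb9. The median of Psmb9 was 5017, while Psmb5, which Psmb8 replaces, stood at 896 and ranked 37 of 42. The lowest levels among tested genes were those of the 19S assembly chaperone Psmd9 at 383 and of Psme4, the PA200 activator, at 148. Between the lowest and the highest replicate, single genes spanned 1.57-fold (Psmd11, a 19S lid subunit) to 4.26-fold (Psme4), with a median of 2.36-fold.

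**Figure D1:**
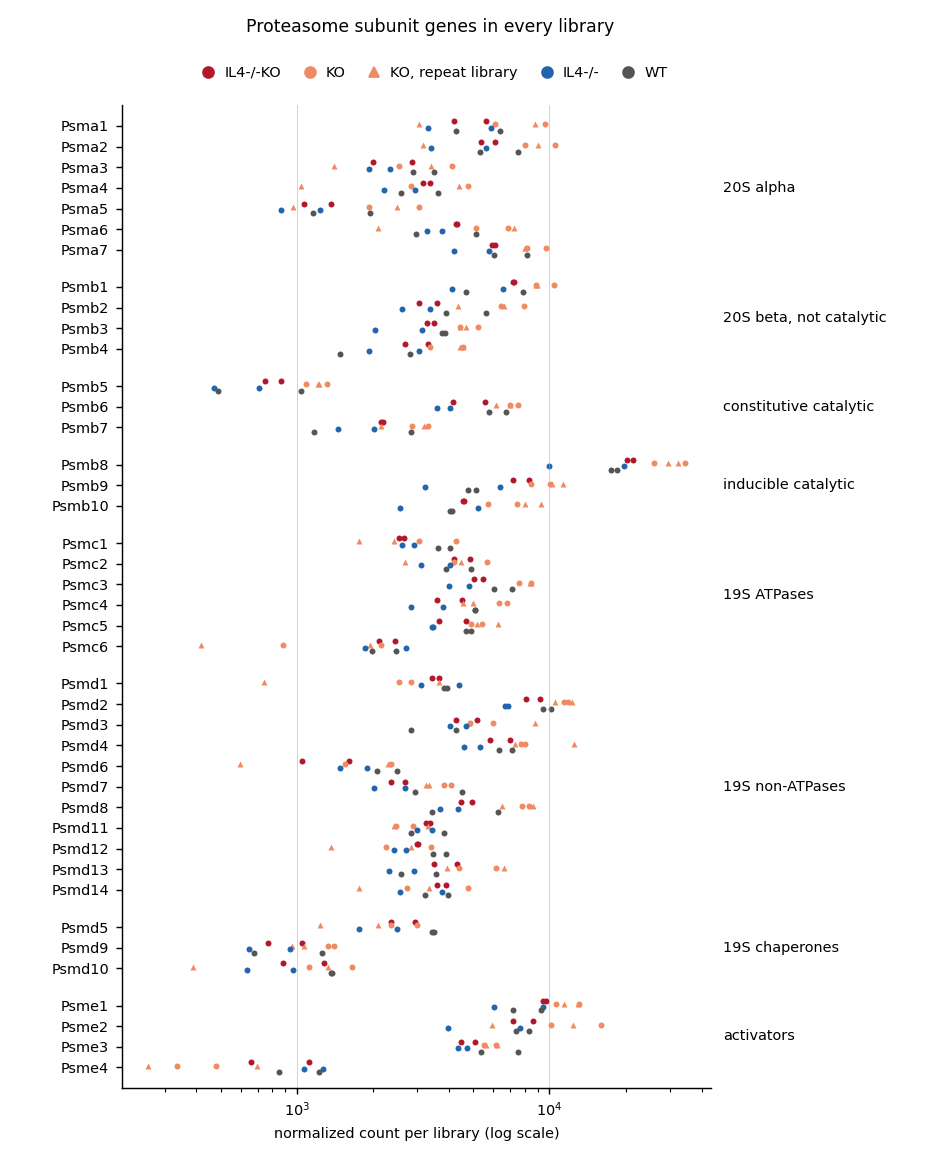
Normalized counts (log axis) of the 41 tested proteasome genes in each of the 10 libraries, grouped by subunit class; circles are libraries and triangles the repeat libraries of KO. Psmb8 lies highest, and KO libraries lie right of the WT libraries for all 3 inducible catalytic genes.

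Replicates differed in ways that ran across the whole set. KO replicate 1 was the highest of the 8 replicates for 25 of the 41 genes, and IL4-/- replicate 2, the one rich in macrophage RNA, was the lowest for 24. By genotype mean, KO was highest for 26 genes and IL4-/- lowest for 31. The part of macrophage RNA in these orders was not tested.

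Upstream sequence was examined for the catalytic genes, since inducible and constitutive members are known to answer different signals. RefSeq (GRCm38.p6) gave windows from 250 bases before to 50 bases after the annotated start for 35 of the 42 genes. Gene positions given elsewhere are from GENCODE, another annotation. For Psmb8 and Psmb9 the whole window lay inside the GENCODE span (34197721 to 34201454 and 34181987 to 34187764). The 4 windows below, each 5′ to 3′ on the gene's own strand, show an inducible and a constitutive pair, and capitals mark matches to the motifs searched. They lie at chr17:34197945-34198244 on the plus strand (Psmb8), chr17:34187281-34187580 on the minus strand (Psmb9), chr14:54617946-54618245 on the minus strand (Psmb5) and chr11:70525107-70525406 on the plus strand (Psmb6).
Psmb8: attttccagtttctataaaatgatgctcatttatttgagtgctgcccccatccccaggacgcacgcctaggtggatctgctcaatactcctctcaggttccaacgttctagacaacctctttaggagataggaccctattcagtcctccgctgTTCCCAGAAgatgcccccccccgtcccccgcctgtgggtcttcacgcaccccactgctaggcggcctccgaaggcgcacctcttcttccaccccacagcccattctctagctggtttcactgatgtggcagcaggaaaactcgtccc
Psmb9: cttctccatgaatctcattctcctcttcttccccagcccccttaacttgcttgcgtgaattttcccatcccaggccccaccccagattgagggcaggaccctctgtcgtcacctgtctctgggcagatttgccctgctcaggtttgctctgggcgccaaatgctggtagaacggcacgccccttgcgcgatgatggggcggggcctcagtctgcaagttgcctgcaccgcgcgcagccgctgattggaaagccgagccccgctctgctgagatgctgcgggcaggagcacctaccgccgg
Psmb5: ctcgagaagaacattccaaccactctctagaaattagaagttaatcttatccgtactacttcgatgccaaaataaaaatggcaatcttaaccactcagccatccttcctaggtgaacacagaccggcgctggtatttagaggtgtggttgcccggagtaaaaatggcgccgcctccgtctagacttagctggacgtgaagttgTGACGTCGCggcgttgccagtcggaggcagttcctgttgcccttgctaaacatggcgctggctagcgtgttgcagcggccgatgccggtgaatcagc
Psmb6: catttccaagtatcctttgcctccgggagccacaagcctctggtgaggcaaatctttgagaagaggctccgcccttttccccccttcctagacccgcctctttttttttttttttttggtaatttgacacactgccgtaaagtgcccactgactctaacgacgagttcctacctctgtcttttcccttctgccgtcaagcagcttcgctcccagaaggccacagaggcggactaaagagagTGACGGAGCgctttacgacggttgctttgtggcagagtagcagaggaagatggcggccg

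Both strands were searched for 3 motifs that do not overlap one another in the windows shown. TTCNNNGAA is a form of the gamma-interferon activated sequence. It occurred in the window of Psmb8, at position -97 from the RefSeq start, and in that of Psmd2, or 2 of 35 genes (5.71%). The 35 genes had 38 windows. This motif was in 5.26% of the 38 windows and in 8.30% of all 32851 windows. The pair GAAA and GAAA with any 2 bases between is a form of the interferon-stimulated response element. It occurred in 4 of 35 genes, or 11.4% (Psmb3, Psmd4, Psmd9 and Psme1). It was in 10.5% of the 38 windows and in 3.44% of all windows. TGACNNNGC is the core of the antioxidant response element bound by NRF1 and NRF2. It occurred in 6 of 35 genes (17.1%), in 15.8% of the 38 windows and in 12.4% of all windows. Those 6 were Psmb5 (position -47), Psmb6 (position -9), Psmc6, Psmd12, Psmd9 and Psme4. The window of Psmb9 held none of the 3 motifs.

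KO was set against WT to see what Tgfbr2 deletion does with Il4 intact. No proteasome gene passed limma at an adjusted p of 0.05 (0 of 41 genes, smallest adjusted p = 0.371, against 0.00691% of all 14473 tested genes). At an unadjusted p under 0.05 there were 3 higher and 1 lower genes in limma, against a background of 5.19% and 6.90% of all genes. Of the 41 log2 fold changes, 26 were above 0, with a median of 0.27, while 46.7% of all tested genes were above 0 and their median was -0.07. Libraries of the genotypes did not overlap for 19 genes (15 higher and 4 lower in KO), against 22.6% of all tested genes (1450 higher and 1814 lower). edgeR and DESeq2 called 0 of the 41 genes as well.

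The inducible catalytic genes had the highest class median in KO against WT, a log2 fold change of 0.90. With the first KO libraries alone, which share the depth of WT, it was 0.73 and the constitutive catalytic genes stood at 0.75, while with the repeats alone the values were 1.08 and 0.53. Psmb9, the inducible subunit that takes the place of Psmb6, lies in the MHC region (mm10 chromosome 17, 34181987 to 34187764, minus strand). It had 10025 and 8453 normalized counts in first KO libraries and 11302 and 10240 in KO repeats, against 4770 and 5100 in the WT libraries. All 4 KO libraries lay above both WT libraries. On the log2 scale the difference was 1.02 ± 0.36 (SE with 2 replicates a genotype, adjusted p = 0.371 in limma), with a 95% interval of 0.18 to 1.86.

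Psmb10, the inducible trypsin-like subunit (found on chromosome 8, 105935735 to 105938444), had 7438 and 5728 normalized counts in first KO libraries and 7992 and 9250 in KO repeats, against 4099 and 4058 in WT. The genotypes did not overlap, and the log2 fold change was 0.90 ± 0.36 (limma adjusted p = 0.394). Psmb8, the inducible chymotrypsin-like subunit (found on chromosome 17, 34197721 to 34201454), had 34242 and 25859 in first KO libraries and 32197 and 29399 in KO repeats, against 17452 and 18551 in WT. It too was higher in every KO library, with a log2 fold change of 0.75 ± 0.40 (limma adjusted p = 0.486). With the first KO libraries alone, the log2 fold changes were 0.90 for Psmb9 and 0.68 for Psmb10. These 3 genes overlap others in the annotation, Psmb9 with Tap1 over 212 bases on the opposite strand and Psmb8 and Psmb10 with antisense genes. Such overlaps were not particular to them. Of the 42 genes, 21 overlap another gene and 18 overlap one on the opposite strand. Among these were Psmb7 (with Nek6 over 6571 bases) and Psmc3 (with Slc39a13 over 4579 bases). Whether strand was used in counting is not given in the sources used here.

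The constitutive catalytic genes had a median log2 fold change of 0.65. Psmb5 had 1314 and 1091 normalized counts in first KO libraries and 1223 and 1209.7 in KO repeats, against 1039 and 489.8 in WT (0.76 ± 0.45, limma adjusted p = 0.535). The genotypes did not overlap for Psmb5, but the WT replicates differed from each other by more than KO differed from WT replicate 1. Psmb7 (0.65 ± 0.44) and Psmb6 (0.15 ± 0.28) overlapped between genotypes.

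Among the other beta subunits, which build the inner rings without cutting, all 4 were above 0 in KO, with a median of 0.52. Psmb4, the last beta subunit added to the ring, had 4555 and 3379 normalized counts in first KO libraries and 4561 and 4426 in KO repeats, against 2814 and 1489 in WT. Its log2 fold change was 1.04 ± 0.39 (limma adjusted p = 0.384) and depended on WT replicate 2, without which it was 0.58. The 7 tested alpha genes, which form the gate of the barrel, had a median of 0.27, a range from -0.22 to 0.42, and libraries that overlapped for every gene. Their median was 0.53 with the first KO libraries alone (7 of 7 above 0) and -0.0083 with the repeats alone (2 of 7 above 0).

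The 19S genes were split in KO against WT. Of the 6 ATPases, 3 were above 0 (median 0.05), and of the 11 other 19S subunits 5 were above 0 (median -0.01). With the first KO libraries alone these medians were 0.13 and 0.11, and with the repeats alone -0.21 and -0.14. Psmd13 and Psmd8, subunits of the 19S lid, were higher in every KO library (log2 fold changes 0.77 ± 0.33 and 0.75 ± 0.34, limma adjusted p = 0.413 and 0.433). Psmd1, the large scaffold subunit of the 19S base, had 2840.4 and 2542 normalized counts in first KO libraries and 3648 and 743 in KO repeats, against 3812 and 3916 in WT (-0.74 ± 0.37, limma adjusted p = 0.466). The lowest of these values was the repeat library of KO replicate 2, and the log2 fold change was -0.25 without that replicate and -1.23 without KO replicate 1. Psmd5, a chaperone of 19S base assembly, had 2986 and 2365 in first KO libraries and 2095 and 1233 in KO repeats, against 3495 and 3437 in WT (-0.70 ± 0.32, limma adjusted p = 0.430). With the first KO libraries alone it was -0.38, and without KO replicate 2 it was -0.45.

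The activators diverged. Psme1 was higher in every KO library, at 13066 and 10568 normalized counts in the first libraries and 11465 and 13018 in their repeats, against 9259 and 7148 in WT (0.56 ± 0.32, limma adjusted p = 0.518). Psme2, its partner in PA28, ranged from 5924 to 15931 in KO and overlapped WT, at 8267 and 7384 (0.45 ± 0.41). Psme3, which forms a nuclear activator of its own, had a log2 fold change of -0.11 ± 0.28.

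Psme4 (found on chromosome 11, 30771726 to 30880361) had the lowest log2 fold change of all 41 genes. It had 479 and 337 normalized counts in first KO libraries and 698 and 259 in KO repeats, against 851 and 1228 in WT. Every KO library lay below both WT libraries, and the log2 fold change was -1.28 ± 0.47 (limma adjusted p = 0.380, 95% interval -2.37 to -0.20). Without KO replicate 2 it was -0.80. Psme4 has the longest transcript of the 42 genes, at 6491 bases, and with a trend on transcript length removed its log2 fold change was -0.92.

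**Figure D2:**
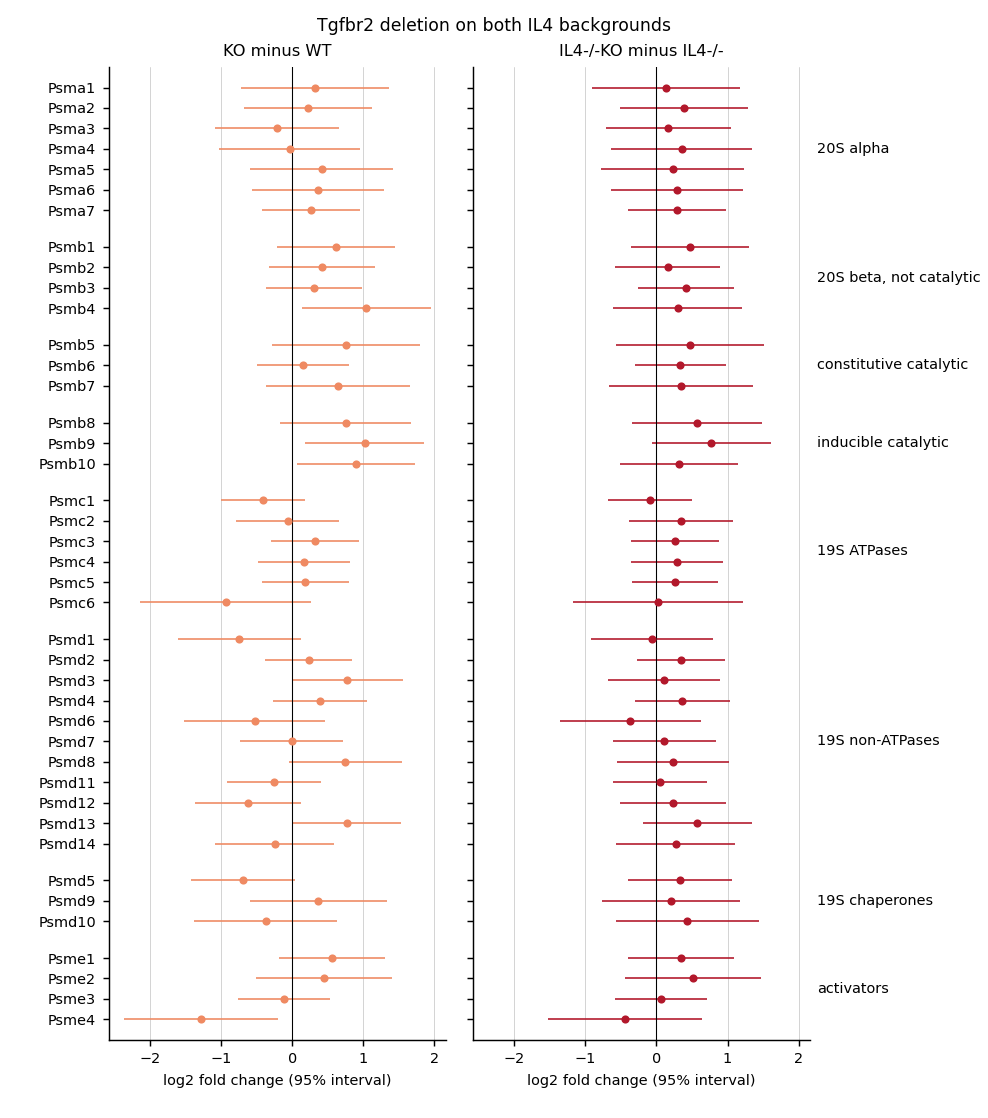
Log2 fold changes (points) with 95% intervals (bars) from limma for the 41 genes in KO against WT (left) and IL4-/-KO against IL4-/- (right), by subunit class. The inducible catalytic genes lie above 0 in both panels, and Psme4 lies lowest in both.

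The median of the whole set in KO against WT depended on single replicates, at 0.04 without WT replicate 2 and 0.16 without KO replicate 1. It was 0.34 with the first KO libraries alone and 0.08 with their repeats alone, where the median of all tested genes was -0.27. Summed T cell markers were higher in every KO library (215631 to 249300) than in WT (119669 to 181979), and their part in the result was not tested. With the epithelium markers as a covariate the set's median was 0.23, and the median of the inducible catalytic genes was 0.997.

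The comparison of IL4-/-KO with IL4-/- asked the same of Tgfbr2 where Il4 is absent, in samples not used above and all of the deeper library set. In limma 0 of 41 genes passed and 0 had an unadjusted p under 0.05, against a background of 0% and 3.25% of all tested genes. edgeR and DESeq2 called 0 proteasome genes. Log2 fold changes were above 0 for 37 of 41 genes, against 47.6% of all tested genes, with medians of 0.29 and -0.03. Libraries did not overlap for 19 genes higher in IL4-/-KO and 0 lower, against 16.8% and 16.2% of all genes.

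Psmb9 had the highest log2 fold change, with 8312 and 7183 normalized counts in IL4-/-KO and 6382 and 3207 in IL4-/- libraries. The genotypes did not overlap, and the log2 fold change was 0.77 ± 0.36 (SE with 2 replicates a genotype, adjusted p = 1 in limma). Psmb8 had 20214 and 21341 in IL4-/-KO, against 19682 and 9941 in IL4-/- (0.57 ± 0.40), so that the gap to IL4-/- replicate 1 was small. Psmd13 had 4302 and 3493 in IL4-/-KO and 2912 and 2326 in IL4-/- (0.57 ± 0.33).

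Psmb10 overlapped between these genotypes, at 4601 and 4546 normalized counts in IL4-/-KO and 5226 and 2574 in IL4-/- (0.32 ± 0.36). The constitutive genes Psmb5, Psmb6 and Psmb7 were higher in every IL4-/-KO library, with log2 fold changes of 0.47, 0.33 and 0.34. All 7 alpha genes and all 4 beta genes without catalytic activity were above 0, with medians of 0.29 and 0.36. The inducible catalytic genes had a median of 0.57 and the constitutive ones 0.34, but 0.48 and 0.49 with the epithelium markers as a covariate. Of the 19S genes, 5 of 6 ATPases and 9 of 11 other 19S subunits were above 0, with medians of 0.26 and 0.23. Psme4 was below 0 here too, at 1116 and 661 in IL4-/-KO and 1064 and 1272 in IL4-/-, and the genotypes overlapped (-0.44 ± 0.47).

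These values rested in large part on IL4-/- replicate 2. Without it, the median of the 41 genes was 0.08, Psmb9 was 0.28 and Psmb8 was 0.08, while without IL4-/- replicate 1 they were 0.48, 1.27 and 1.06. In IL4-/- replicate 2 the proteasome share of reads was the lowest of all libraries (0.575%), its summed macrophage markers were the highest (120974) and its summed T cell markers the lowest (105505). The part of these in the result was not tested.

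The interaction, which tests whether the effect of Tgfbr2 deletion differed between the IL4 backgrounds, gave 0 of 41 genes in limma (smallest adjusted p = 0.988) and 0 at an unadjusted p under 0.05, against 0% and 3.52% of all tested genes. The median was 0.08, against 0.00 for all tested genes. For Psmb9 the interaction was -0.24 ± 0.51, with a 95% interval of -1.43 to 0.94. edgeR and DESeq2 called 0 of the 41 genes for it.

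Averaged over both backgrounds, Tgfbr2 deletion gave log2 values above 0 for 31 of 41 genes, against 45.0% of all tested genes, with medians of 0.28 and -0.08. In limma 0 genes passed, against 0.0207% of all tested genes, and edgeR and DESeq2 called 0 of the 41. At an unadjusted p under 0.05 in limma, 5 genes were higher and 1 lower, against 4.66% and 5.21% of all tested genes. Libraries did not overlap for 3 higher genes (Psmb8, Psmb9 and Psme1) and 0 lower, against 2.05% and 1.31%. For Psme1 this was nearly a tie, with 9455 normalized counts in IL4-/-KO replicate 1 and 9448 in IL4-/- replicate 1. The 5 genes with a low p were all 3 inducible catalytic genes, Psmb4 and Psmd13, and the lower gene was Psme4. Psmb9 averaged 8876 normalized counts in the 4 replicates with ThPOK-Cre and 4865 in the 4 without it, a mean log2 fold change of 0.89 ± 0.26 (SE, limma adjusted p = 0.389). For Psmb8 it was 0.66 ± 0.28, for Psmb10 0.61 ± 0.25 and for Psme4 -0.86 ± 0.33. Without WT replicate 2 the median of the set was 0.17. The comparisons within each background are part of this average, so it adds no independent support to them.

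Whether inducible subunits differed beyond the constitutive ones they replace was tested with their ratio in each replicate. The Psmb9 to Psmb6 ratio of normalized counts was 2.00 and 1.29 in IL4-/-KO, 1.56 and 1.34 in KO, 1.77 and 0.793 in IL4-/- and 0.709 and 0.887 in WT. Replicates with ThPOK-Cre were higher by 0.65 on the log2 scale, or 1.57-fold, but IL4-/- replicate 1 lay among them. A two-sided exact permutation test of 4 against 4 replicates gave p = 0.114 (adjusted p = 0.686 over 6 tests), where the smallest p that 70 arrangements allow is 0.0286.

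The ratio of Psmb8 to Psmb5 ran from 16.8 to 37.9, both in WT, and differed by 0.045 on the log2 scale with Tgfbr2 deletion (exact permutation p = 0.886). The ratio of Psmb10 to Psmb7 was 2.13 and 2.07 in IL4-/-KO, 2.38 and 2.99 in KO, 2.58 and 1.77 in IL4-/- and 1.45 and 3.48 in WT (difference 0.11, exact permutation p = 0.714). Both were spread most widely in WT. With IL4 loss, the differences of the 3 ratios were 0.36 for Psmb9 to Psmb6, -0.01 for Psmb8 to Psmb5 and -0.21 for Psmb10 to Psmb7, with exact permutation p of 0.371, 1 and 0.543 (adjusted p = 1 for each).

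**Figure D3:**
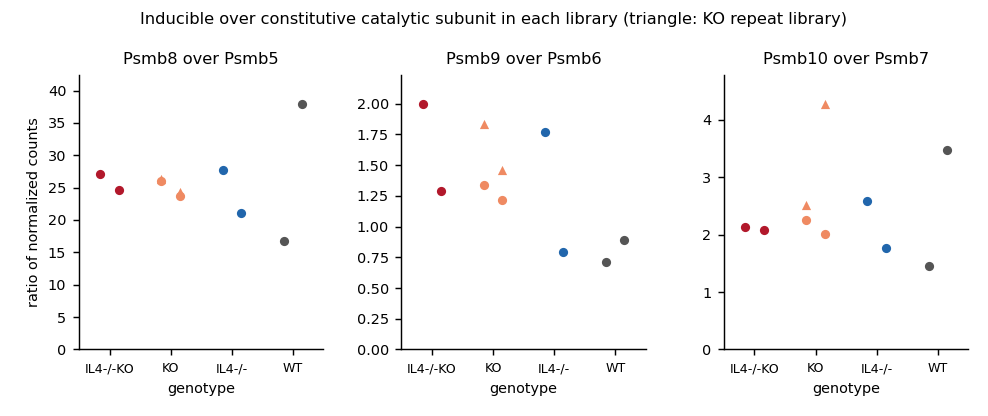
Ratio of normalized counts of each inducible catalytic gene to the constitutive gene it replaces, in each library; circles are libraries, triangles KO repeat libraries, and replicate 1 stands left of replicate 2. The Psmb9 to Psmb6 ratio is 1.22 or more in the 6 libraries with ThPOK-Cre and at most 0.887 in 3 of the 4 libraries without it, and the other ratios overlap.

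IL4-/-KO was set against KO to see what Il4 loss does under Tgfbr2 deletion, and both groups are shared with the comparisons above. In limma 0 of 41 genes passed, against 0% of all tested genes, and 0 higher and 2 lower genes (Psmb2 and the ATPase Psmc3) had an unadjusted p under 0.05, against 8.53% and 3.13% of all tested genes. edgeR and DESeq2 called 0. Log2 fold changes were below 0 for 31 of 41 genes, against 52.8% of all tested genes, with medians of -0.39 and -0.07. Libraries did not overlap for 19 genes lower in IL4-/-KO and 0 higher, against 12.4% and 16.2% of all genes. Marker sums moved the same way without overlap, at 15523 to 66099 in IL4-/-KO and 102957 to 167372 in KO for mammary epithelium, and at 180192 to 185364 in IL4-/-KO and 215631 to 249300 in KO for T cells. With the epithelium markers as a covariate the set's median was -0.31, that of all tested genes 0.08, and that of the constitutive catalytic genes -0.27 in place of -0.52. The part of T cell RNA in the result was not tested.

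Psmb2, a beta subunit without catalytic activity, had the lowest value, at 3581 and 3047 normalized counts in IL4-/-KO, against 7895 and 6424 in first KO libraries and 6632 and 4329 in KO repeats. The genotypes did not overlap, and the log2 fold change was -0.92 ± 0.32 (SE with 2 replicates a genotype, adjusted p = 0.367 in limma). Psmb10 (-0.73 ± 0.36) and Psmd8 (-0.73 ± 0.34) were also lower in every IL4-/-KO library. Against the KO repeats alone, which share the depth of IL4-/-KO, these values were -0.70, -0.91 and -0.67, and the set's median was -0.30. Those repeats had a read in fewer genes (12891 and 12459) than the IL4-/-KO libraries (14394 and 14227). The alpha genes had a median of -0.37 and the ATPases of -0.27, but 0.10 and 0.04 against the repeats alone. Psme4 was on the other side, with a log2 fold change of 1.03 ± 0.47 and libraries that overlapped.

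The comparison of IL4-/- with WT asked what Il4 loss does where Tgfbr2 is intact. All IL4-/- libraries were of the deeper set and all WT libraries of the shallower one, so genotype and library set cannot be told apart here. In limma 0 of 41 genes passed, against 0% of all tested genes, and 0 higher and 1 lower gene had an unadjusted p under 0.05, against 2.63% and 1.46%; edgeR and DESeq2 called 0. Log2 fold changes were below 0 for 37 of 41 genes, against 49.5% of all tested genes, with medians of -0.36 and 0.01. Libraries did not overlap for 17 lower genes and 0 higher, against 14.6% and 14.7% of all genes.

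The 1 gene was Psmb6, at 3605 and 4044 normalized counts in IL4-/- and 6730 and 5748 in WT (-0.70 ± 0.28, limma adjusted p = 1). Psmd10, which encodes the 19S chaperone gankyrin, had 969 and 637 in IL4-/- and 1374 and 1364 in WT (-0.80 ± 0.43), and Psmd5 had 2494 and 1765 in IL4-/- and 3495 and 3437 in WT (-0.72 ± 0.32). The inducible catalytic genes stood nearest to 0 among the classes, with a median of -0.15 and libraries that overlapped for all 3. Without IL4-/- replicate 2 the set's median was -0.09, without IL4-/- replicate 1 it was -0.55 and without WT replicate 2 it was -0.55.

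Averaged over both states of Tgfbr2, Il4 loss gave log2 values below 0 for 36 of 41 genes, against 51.2% of all tested genes, with medians of -0.36 and -0.02. In limma 0 genes passed, against 0% of all tested genes, while 0 higher and 8 lower genes had an unadjusted p under 0.05, against 7.57% and 3.90%. Libraries did not overlap for 8 lower genes and 0 higher, against 1.91% and 2.14%. Those with an unadjusted p under 0.05 were Psma7, Psmb2, Psmb3, Psmb6, the ATPases Psmc3 and Psmc4, and Psmd2 and Psmd7 of the 19S cap. Psmb2 had the smallest p, with 3150 normalized counts on average in the 4 replicates without Il4 and 5538 in the 4 with it (-0.79 ± 0.23, limma adjusted p = 0.332). The set's median was -0.23 without IL4-/- replicate 2. DESeq2 came nearest to a call here, with an adjusted p of 0.0648 for Psmc3, the lowest of any proteasome gene in any fit. All Il4-deleted libraries were of the deeper set, while WT and the first KO libraries were of the shallower one. The part of this in the average was not tested. With the first KO libraries alone the median was -0.39 and 11 genes had an unadjusted p under 0.05 in limma. With the repeats alone the median was -0.23, 33 genes were below 0 and 3 had such a p. The values of all tested genes with these choices of KO libraries are not set beside them. These counts are therefore not a result about the proteasome genes alone.

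Proteasome transcripts are short, with a median of 1586 bases against 3016.5 for all tested genes, and 39 of the 42 lay below the median of all tested genes. Differences between genotypes followed length across 14398 genes, which are not independent replicates, with Spearman correlations of -0.22 in KO against WT, -0.17 in IL4-/-KO against IL4-/-, 0.29 in IL4-/-KO against KO and 0.26 in IL4-/- against WT. Genes of at most 1903 bases had median log2 fold changes of 0.23, 0.13, -0.36 and -0.22 in these comparisons. With a trend on length removed from each replicate, the medians of the 41 genes were 0.07, 0.17, -0.20 and -0.25, and those of all genes -0.02, -0.00, -0.13 and -0.06. For the average over both backgrounds, the median with Tgfbr2 deletion was then 0.07 in place of 0.28, and 2 in place of 6 genes had an unadjusted p under 0.05 in limma. With Il4 loss the median was -0.19 in place of -0.36, 28 in place of 36 genes were below 0, and 3 in place of 8 had an unadjusted p under 0.05. In the fit without the trend, the medians of all genes were -0.03 with Tgfbr2 deletion and -0.08 with Il4 loss. For Il4 loss, 6371 of all 14398 genes were then above 0, against 13 of the 41. The shares of all genes with an unadjusted p under 0.05 in that fit are not given here.

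Of the classes, the inducible catalytic genes kept the highest medians in the comparisons of Tgfbr2 deletion after that step, at 0.67 in KO against WT and 0.47 in IL4-/-KO against IL4-/-. Psmb9 was 0.80 and 0.64 in these comparisons. The ATPases and other 19S subunits had medians of -0.12 and -0.18 in KO against WT, and 1 of 6 and 5 of 11 were above 0.

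**Figure D4:**
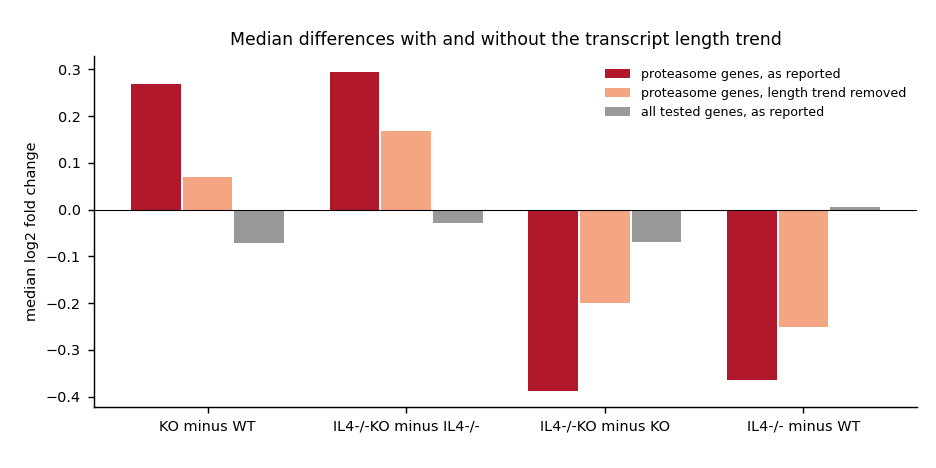
Median log2 fold change (bars) of the 41 proteasome genes as reported and with the transcript length trend removed, in 4 comparisons. The bars for all tested genes are as reported only. The medians of the 41 genes shrink to 0.07, 0.17, -0.20 and -0.25 with the trend removed and keep their direction. Those of all genes with the trend removed, not drawn, were -0.02, -0.002, -0.13 and -0.06.

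Libraries from the same RNA gave the technical spread of these genes. In KO replicate 1, 1 of 41 genes differed by more than 2-fold between repeat and first library (2.44%), against 25.6% of all tested genes. This was Psmc1, an ATPase, at 1770 normalized counts in the repeat and 4286 in the first library. In KO replicate 2, 8 genes did (19.5%), all lower in the repeat, against 41.7% of all tested genes.

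Those 8 included 4 of the 7 alpha genes, whose class median was -1.001 on the log2 scale, as well as Psmd1, at 743 and 2542, and Psmd10, at 388 and 1115. The inducible catalytic genes went the other way in that pair, with a median of 0.28, and Psmb10 had 9250 in the repeat and 5728 in the first library.

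**Figure D5:**
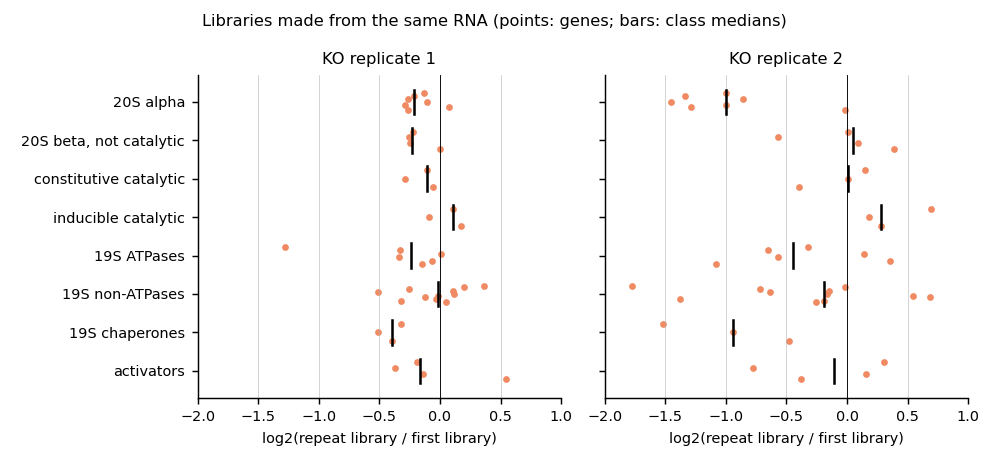
Log2 ratio of repeat over first library for the 41 genes (points) with class medians (bars), in KO replicate 1 (left) and KO replicate 2 (right). In replicate 2 the alpha genes have a median of -1.001 and the inducible catalytic genes 0.28.

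Partners of the proteasome outside the symbol rule were read from 3 lists, and 0 of their genes passed limma in any of these comparisons. Of 15 tested assembly and associated factors, 4 had an unadjusted p under 0.05 in KO against WT and all were lower, against 6.90% of all tested genes. Uchl5, a deubiquitinase of the 19S cap, had 1197 and 751 normalized counts in first KO libraries and 655 and 241 in KO repeats, against 1552 and 2511 in WT (-1.54 ± 0.42, limma adjusted p = 0.345). Usp14, another 19S deubiquitinase, was at -1.04 ± 0.31 (adjusted p = 0.349). Their KO libraries lay below WT in every case. The list's median was 0.10 in KO against WT and 0.21 in IL4-/-KO against IL4-/-, where 0 of the 15 had an unadjusted p under 0.05.

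Of 6 regulators of constitutive proteasome genes, 5 were below 0 in KO against WT (median -0.26) and 5 in IL4-/-KO against IL4-/- (median -0.46). The 1 gene above 0 was Stat3 in the first comparison and Vcp in the second. Of all tested genes, 46.7% and 47.6% were above 0. Nfe2l2, which encodes the stress factor NRF2, had 1431 and 1352.5 normalized counts in IL4-/-KO and 2151 and 3555 in IL4-/- libraries. It had 1672 and 1395 in first KO libraries and 1412 and 809 in KO repeats, against 2487 and 2980 in WT. No library with ThPOK-Cre reached any without it, and the mean log2 fold change over both backgrounds was -1.03 ± 0.24 (limma adjusted p = 0.326). Nfe2l1, which encodes NRF1, was at -0.56 ± 0.31.

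Of 13 genes of interferon gamma signalling and MHC class I peptide loading, 7 were above 0 in KO against WT (median 0.05) and 7 in IL4-/-KO against IL4-/- (median 0.11). Tap1, the peptide transporter gene next to Psmb9, had 15979 and 15342 normalized counts in first KO libraries and 18891 and 23254 in KO repeats, against 7739 and 12723 in WT (0.89 ± 0.37, limma adjusted p = 0.403). Ifng itself was uneven, where KO replicate 1 had 39579 and 30000.4 and KO replicate 2 had 5982 and 4437, against 3733 and 9012 in WT (1.22 ± 0.82, limma adjusted p = 0.585). Ifngr2, a chain of its receptor, was at -1.44 ± 0.59 in KO against WT and -1.43 ± 0.59 in IL4-/-KO against IL4-/- (limma adjusted p = 0.398 and 1).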

How the data were processed

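The authors deposited 1 table of normalized counts, a signal of reads divided by a size factor for each library. Per the labels' protocols, cDNA came from SMART-Seq v4 amplification and libraries from KAPA Hyper Prep, with no molecular identifiers named. Per the submitters' processing notes, bcl2fastq 2.18.0, STAR, DESeq2 and build mm10 were used; the read counter, its annotation and its use of strand are not given in the sources used here. All values (100%) were whole multiples of a library's smallest value within 0.001 reads, which recovered the reads. A value of 0 allows up to 3 reads, and this covers counting error only. The 7 rows without a gene name, at most 0.0205% of a library, were left out.

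The 14473 genes that reached 10 normalized counts in 2 or more of 8 replicates were tested with limma 3.58.1 (R 4.3.3) on log2(normalized count + 1), with a mean-variance trend, two-sided, Benjamini-Hochberg adjustment over all tested genes and a threshold of 0.05. Fold changes on this scale understate low genes. All 4 genotypes shared one spread, and for limma the first and repeat KO libraries were averaged per replicate. For edgeR and DESeq2 their recovered reads were summed per replicate. Alternatives were pseudocount 5, no filter, quantile and TMM scaling, edgeR 4.0.16 and DESeq2 1.42.0 on recovered reads, other uses of the KO libraries, only the genotypes compared, a replicate block, removal of a length trend, an epithelium covariate and leaving out each replicate. Lengths are those of the longest coding transcript in GENCODE vM21, which gave positions too. Ratios were tested by exact permutation. The fit was tested on simulated data. Figures used matplotlib 3.10.9.

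The members and all lists were chosen with earlier results of these data known. Named genes were the catalytic and activator genes, the 3 with the largest difference in each direction per comparison among those whose libraries did not overlap, and the leading genes of the partner lists. The other genes named were chosen after their values were seen. The values of 1 gene of the interferon gamma list are not reported here.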

Additional observations from a re-analysis of the deposited data

Results flagged for a closer look

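Psma8, the alpha subunit of the testis proteasome, was too low for the comparisons but was not at 0 throughout. It had 28.3 normalized counts (44 reads) in IL4-/- replicate 2 and 1.32 (1 read) in WT replicate 2. The other 8 libraries were listed at 0. In those 8, a value of 0 allows up to 3 reads, or 2.17 to 4.41 normalized counts. The difference was not tested. IL4-/- replicate 2 also had the highest macrophage marker sum, 120974 normalized counts, and the part of that RNA in the Psma8 reads was not tested.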

How the results depend on the processing

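No proteasome gene passed in any of the 7 comparisons under any of the 21 alternatives, 144 fits in all. Medians of the set kept their direction under every alternative in all comparisons but the interaction, where 16 of 20 did.

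The number of all genes called in KO against WT was 1, and became 2 with quantile normalization, 2 with the epithelium covariate, 527 with DESeq2, and 0 with edgeR, the repeat KO libraries only, only the genotypes compared, a replicate block or any replicate left out (0 to 0). In IL4-/-KO against IL4-/- it was 0, and became 1 with quantile normalization, with KO replicate 2 by its first library only and with the epithelium covariate, and 51 with DESeq2. DESeq2 called 386 in IL4-/-KO against KO, 29 in IL4-/- against WT, 35 in the interaction and 312 for mean Il4 loss. Each was 0 in the main limma fit. For mean Il4 loss, limma called 4 with the first KO libraries alone. For mean Tgfbr2 deletion the 3 calls became 8 with quantile normalization, 12 with the epithelium covariate, 331 with DESeq2 and 0 to 4 with a replicate left out. The cause of these differences was not tested.

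Leaving out each replicate gave medians from -0.55 to -0.09 in IL4-/- against WT and from -0.17 to 0.25 in the interaction. For Psmb8 to Psmb5, ratio differences ran from -0.14 to 0.25 with Tgfbr2 deletion and from -0.20 to 0.19 with Il4 loss, and for Psmb9 to Psmb6 from 0.50 to 0.94 with Tgfbr2 deletion, the highest being without IL4-/- replicate 1 (exact permutation p = 0.0286, the smallest possible). For Psmb10 to Psmb7 with Tgfbr2 deletion they ran from -0.087 to 0.33, and the value was -0.0513 with the first KO libraries only and -0.0313 with KO replicate 2 by its first library only.

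Deviations of same-numbered replicates from their genotype means correlated at 0.19 to 0.24 among IL4-/-KO, KO and IL4-/-. Between each of these and WT the correlations were -0.36 to -0.20. With 2 replicates a genotype, these values cannot settle whether replicate numbers pair the samples. The main fit did not pair them. The replicate block left the median of the 41 genes in KO against WT at 0.27 and called 0 of them. Precision is limited by the 2 replicates per genotype. Depth was 17121030 reads or more per library, and the lowest value of a tested proteasome gene was 259 normalized counts (Psme4 in the repeat library of KO replicate 2).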
